A study of Mus musculus with 105 samples.

Results

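The genes described here carry the symbols Zfp900 to Zfp999 in the mouse. They were chosen by symbol and by level, and a symbol was kept as a member in a dataset where its mean reached 0.5 CPM, a read count scaled to the library total, in any group. The merged count tables of 2 datasets list 36 such symbols among 53656 rows, and 34 of them were members in each. The per-library count files of the other 3 datasets list 57 among 27179 rows, of which 52, 51 and 51 were members. In all, 52 genes were members in any dataset and 34 in all 5, and 51 members entered a test. The last members inside the threshold were Zfp966, with a highest group mean of 0.529 CPM, and Zfp964 with 0.656 CPM in the dataset where it came closest. Just outside it lay Zfp973 with 0.354 CPM and, in another dataset, Zfp966 with 0.324 CPM. Zfp951, Zfp964 and Zfp966 had a group mean under 0.5 CPM in a dataset where another group carried them past the threshold.

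Many mouse zinc finger genes encode a KRAB domain followed by an array of zinc fingers that reads a DNA sequence. The KRAB domain recruits the scaffold TRIM28 and, through it, the methyltransferase SETDB1 and HP1 proteins, which silence the bound site. Transposable elements are the best known targets of such proteins, and large clusters of these genes on mouse chromosomes 2 and 4 are known to restrain endogenous retroviruses in embryonic stem cells. ZFP932 is known to repress a class of endogenous retroviruses, and ZFP961 to bind the primer binding site of retroviruses that prime with lysine tRNA.

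The series measured polyadenylated RNA of mouse embryonic stem cells (ESCs) in 93 libraries with counts, 3 for each of 31 groups in 5 datasets. SUZ12 is a core subunit of the Polycomb complex PRC2, which methylates histone H3 at repressed genes, and RBBP5 is a core subunit of the complexes that methylate H3 at active promoters. The series asks how expression changes when these histone marks are altered. The first dataset, called the panel here, holds unmodified E14TG2a cells, a line without Suz12, and lines made from it by adding back either SUZ12 itself or S12N, a SUZ12 that lacks its VEFS domain. In 4 more lines S12N carries a fusion partner, SUV2 or SD2 or a version of either marked as dead (SUV2* and SD2*); the labels do not spell out these names. The RBBP5-SUV2 and RBBP5-SD2 sets start from E14TG2a cells with an FKBP tag knocked into RBBP5 (called R), which the degrader dTAG13 removes as protein. Both sets add the Suz12 knockout of these cells (called RS) and RS with S12N fused to SUV2 or to SD2, each in DMSO or in dTAG13 for 24 h, at 500 nM in the SD2 set. The degron set holds a line named TCF with SUZ12-mAID and OsTIR, in which 50 µM indole acetic acid (IAA, an auxin) degrades SUZ12, after 2, 4, 8, 24 or 48 h, with 48 h of DMSO as control. The HP1 set holds E14TG2a cells with and without Suz12, and the cells without it after adding the full-length protein, S12N alone, or S12N joined to the chromodomain of HP1a. Each genotype is its own line, so that a genotype and its line cannot be told apart, and the RS line has the same name in both RBBP5 sets. The labels call the libraries biological triplicates except in the RBBP5-SD2 set, where p-values measure the spread between these samples, which may be technical.

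The promoters of 7 members are shown because these genes carry the changes below that recurred across comparisons. Zfp951 and Zfp936 were called higher, and Zfp941 lower, in all 4 Suz12 knockout comparisons. Of these, 2 use an RS line of the same name, so that the 4 may not be separate knockouts. Zfp940 and Zfp945 were called lower and Zfp954 higher after each RBBP5 depletion, and Zfp961 moved with SUZ12 in 2 datasets. Each run holds 250 bases before and 50 after a gene start of RefSeq (GRCm38.p6), 5′ to 3′ on the gene's strand, with CG dinucleotides in capitals. Where a gene had several windows, the one with the most CG dinucleotides is shown. Zfp951 had 2, both with 8, and the one with the lower start coordinate is shown. The window of Zfp936 lies inside the interval chr7:43114166-43192109 given for that gene, not at its outer start. The windows are chr5:104859978-104860277 (minus strand) for Zfp951, chr7:43177340-43177639 (plus) for Zfp936, chr7:140822129-140822428 (minus) for Zfp941, chr7:29853599-29853898 (minus) for Zfp940, chr17:22867085-22867384 (minus) for Zfp945, chr7:7121427-7121726 (minus) for Zfp954 and chr8:71950816-71951115 (plus) for Zfp961.
Zfp951: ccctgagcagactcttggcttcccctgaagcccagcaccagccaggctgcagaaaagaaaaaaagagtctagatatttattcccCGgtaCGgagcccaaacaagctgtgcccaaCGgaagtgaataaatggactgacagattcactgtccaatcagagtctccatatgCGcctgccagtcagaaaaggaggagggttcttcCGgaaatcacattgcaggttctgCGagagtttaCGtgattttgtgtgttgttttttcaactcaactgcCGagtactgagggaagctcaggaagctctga
Zfp936: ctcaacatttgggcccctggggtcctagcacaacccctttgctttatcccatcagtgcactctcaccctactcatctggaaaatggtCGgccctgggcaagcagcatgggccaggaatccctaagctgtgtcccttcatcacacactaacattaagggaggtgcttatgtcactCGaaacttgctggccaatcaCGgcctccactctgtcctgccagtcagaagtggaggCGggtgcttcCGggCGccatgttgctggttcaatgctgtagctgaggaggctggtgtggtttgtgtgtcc
Zfp941: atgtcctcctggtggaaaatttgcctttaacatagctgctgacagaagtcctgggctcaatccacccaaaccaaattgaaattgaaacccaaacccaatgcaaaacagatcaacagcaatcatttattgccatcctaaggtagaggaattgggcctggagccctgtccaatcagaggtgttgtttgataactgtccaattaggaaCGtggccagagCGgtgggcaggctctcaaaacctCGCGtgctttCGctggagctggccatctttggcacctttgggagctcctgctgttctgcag
Zfp940: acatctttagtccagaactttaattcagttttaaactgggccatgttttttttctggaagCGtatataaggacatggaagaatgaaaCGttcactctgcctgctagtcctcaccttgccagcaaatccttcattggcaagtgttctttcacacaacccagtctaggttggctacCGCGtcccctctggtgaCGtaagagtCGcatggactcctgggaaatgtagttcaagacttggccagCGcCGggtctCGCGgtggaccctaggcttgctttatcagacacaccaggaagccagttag
Zfp945: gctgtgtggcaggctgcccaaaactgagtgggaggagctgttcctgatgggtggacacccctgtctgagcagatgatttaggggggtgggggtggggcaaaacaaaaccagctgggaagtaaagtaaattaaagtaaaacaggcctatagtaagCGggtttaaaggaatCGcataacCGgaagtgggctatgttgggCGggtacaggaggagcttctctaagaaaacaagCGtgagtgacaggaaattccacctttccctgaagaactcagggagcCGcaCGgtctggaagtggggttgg
Zfp954: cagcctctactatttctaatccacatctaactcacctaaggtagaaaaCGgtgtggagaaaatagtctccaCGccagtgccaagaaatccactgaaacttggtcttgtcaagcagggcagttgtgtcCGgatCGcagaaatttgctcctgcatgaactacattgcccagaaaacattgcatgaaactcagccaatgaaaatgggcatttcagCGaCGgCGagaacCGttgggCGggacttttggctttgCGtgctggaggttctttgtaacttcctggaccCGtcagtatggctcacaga
Zfp961: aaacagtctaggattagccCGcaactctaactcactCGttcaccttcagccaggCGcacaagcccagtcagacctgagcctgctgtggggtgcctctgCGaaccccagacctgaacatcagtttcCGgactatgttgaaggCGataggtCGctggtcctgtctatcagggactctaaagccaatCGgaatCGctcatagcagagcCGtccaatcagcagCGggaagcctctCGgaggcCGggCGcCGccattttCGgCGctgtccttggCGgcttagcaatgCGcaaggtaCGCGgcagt

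The Zfp961 window holds 21 CG dinucleotides, the Zfp954 window 11, the Zfp940 window 10, and the windows of Zfp951, Zfp945, Zfp936 and Zfp941 hold 8, 7, 6 and 5. Promoters were listed for 47 members, 55 windows in all, and the median window held 8 CG dinucleotides (range 2 to 24). The median was 16 over 315 windows of 260 other Zfp genes of any number that were not members, and 7 over all 32851 windows. The letters CCGGAAG, searched on both strands, occurred in 23.6% of the members' windows, in 21.6% of those of the other Zfp genes and in 8.86% of all, and among the windows printed in those of Zfp951, Zfp936 and Zfp945. Overlapping windows of the same gene count separately, and those of Zfp958, Zfp938 and Zfp951 all hold these letters. AAGATGG, on both strands, was in 5.45% of members' windows, among them that of Zfp941. It was in 8.89% of the other Zfp genes' windows and in 6.34% of all. CACGTG was in 12.7% of members' windows, in 5.71% of those of the other Zfp genes and in 7.15% of all. TATAAA, on both strands, was in none of the 55 windows, in 8.25% of those of the other Zfp genes and in 13.6% of all.

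Library totals, in units of M counts, ran from 8.8 to 29.97 in the panel, from 18.59 to 22.26 in the RBBP5-SUV2 set, from 11.44 to 17.78 in the RBBP5-SD2 set, from 8.31 to 18.81 in the degron set and from 5.48 to 21.72 in the HP1 set. Suz12 stood at 255, 273 and 310 CPM in the wild-type libraries of the panel and at 46.8, 57 and 69.8 CPM in its knockout, and at 277, 285 and 299 CPM against 60.9, 56.6 and 68.1 CPM in the HP1 set. In DMSO it stood at 366, 374 and 370 CPM in R and 34.8, 32.6 and 32.2 CPM in RS of the SUV2 set, and at 318, 317 and 316 CPM against 62.9, 57.6 and 64.9 CPM in the SD2 set. The tagged proteins of the dTAG13 and auxin experiments are removed after translation, so that their mRNA checks nothing there. Among all 93 libraries, IAA 24 h replicate 3 of the degron set had the lowest mean correlation with its group, 0.9336, and in the RBBP5-SD2 set R dTAG replicate 3 stood apart from its group with 0.9798. Results that rest on either library are given with and without it. Libraries of the unmodified cells and of the knockout are shallower than the others of the panel, with their own style of column name, so that depth, preparation and line cannot be told apart where they are compared with the other panel lines. Columns of dead SD2 also have a name style unlike those of active SD2 and both SUV2 fusions. Preparation and line thus cannot be told apart between dead SD2 and those lines.

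Per kilobase of transcript, Zfp961 had the highest mean level of the members in the panel, at 32.9 CPM per kb, and in both RBBP5 sets, at 38.7 and 36.8 CPM per kb. Zfp936 followed at 20.7 CPM per kb in the panel. In the HP1 set Zfp979 stood at 31.3 and Zfp985 at 30.8 CPM per kb, above Zfp961 at 24.7 CPM per kb, and in the degron set Zfp958 stood at 39.3 CPM per kb. Zfp951 ranged from 0.195 to 5.62 CPM per kb over the 5 datasets. The ratio of a member's highest to its lowest group mean had a median of 1.5 in the panel (range 1.22 to 22.6), 1.67 in the RBBP5-SUV2 set, 1.85 in the RBBP5-SD2 set, 1.83 in the degron set and 1.41 in the HP1 set, where it ran from 1.15 to 128. Zfp951 was the member with that ratio of 128 and with the ratio of 22.6 in the panel. It lay under 0.5 CPM in the lowest group of both sets and became a member through other groups, which favours a high ratio. A gene was called when its adjusted p (edgeR's quasi-likelihood test, Benjamini-Hochberg over all genes of the dataset) was under 0.05. Over the 28 comparisons of 2 groups, the median member was called 6 times. The tested members that the merged tables do not list entered 15 of these, and Zfp964 entered 23. Of those tested in all 28, Zfp951 and Zfp936 were each called 17 times, Zfp961 and Zfp940 13 times and Zfp958 12 times. Zfp943 was called in none of 28, and Zfp971 and Zfp993 in none of 15. The share of all genes called ran from 0.0% to 71.8% over these comparisons. RNA from bulk culture cannot tell fewer cells expressing a gene apart from less RNA per cell.

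**Figure D1:**
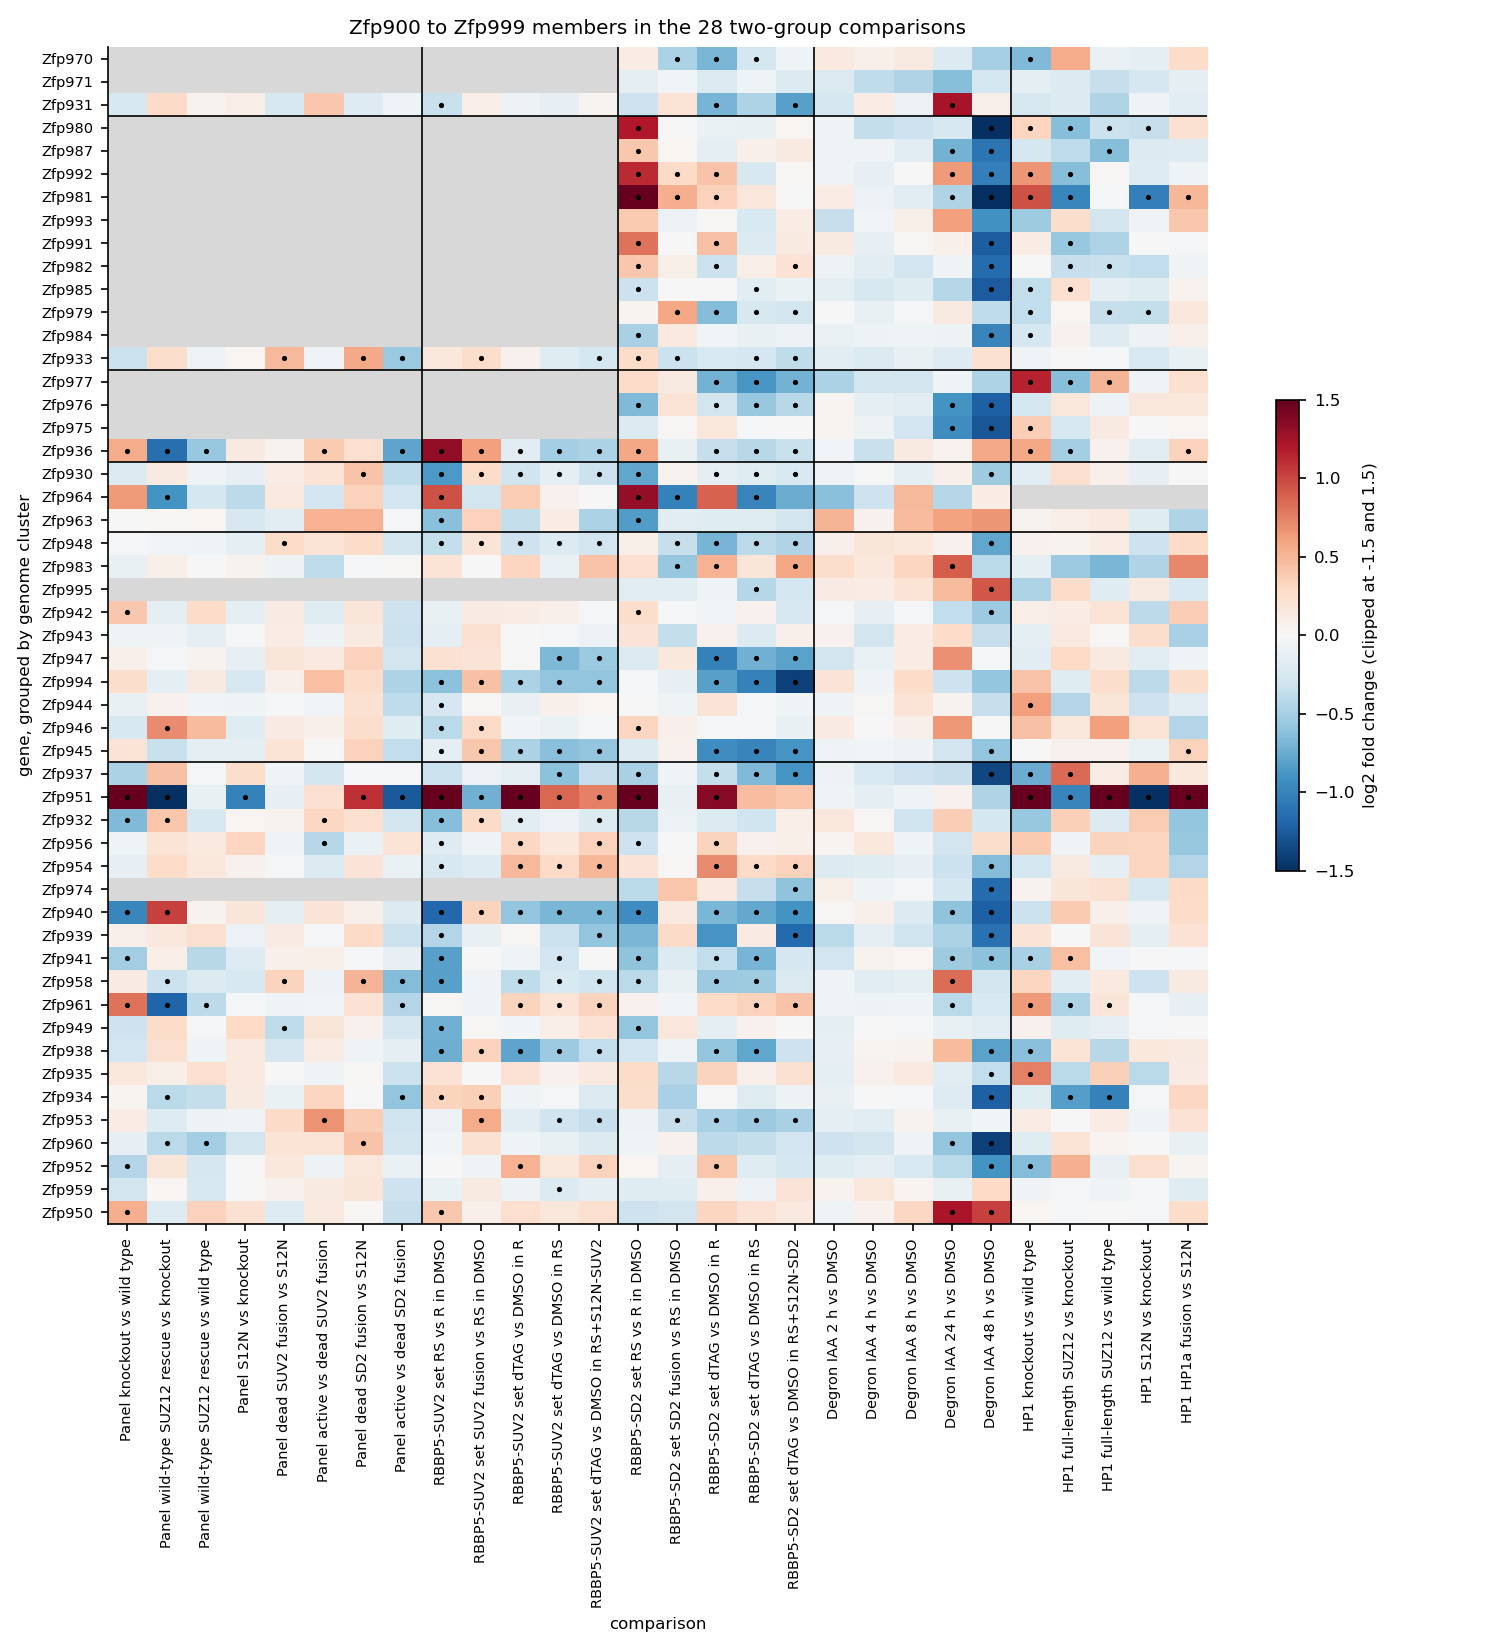
Log2 fold changes of 51 tested members (rows, grouped by genome cluster) in the 28 comparisons of 2 groups (columns, by dataset), clipped at -1.5 and 1.5, with a dot where the member was called and grey where it was not tested. Zfp951 is dark red in the 4 knockout columns, and most members are blue in the column for IAA 48 h, where the median was -0.53.

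Zfp951 was the member with the greatest fold difference between lines with and without SUZ12. In the panel, the HP1 set and both RBBP5 sets its mean in wild type or R in DMSO lay under 0.5 CPM. It became a member there through other groups, a choice that favours a large ratio. In the panel its level was 0.104, 0.655 and 0.341 CPM in wild type, 11 counts in all, and 6.3, 8.83 and 7.82 CPM in the knockout. The groups were far apart, with a log2 fold change of 4.22 (95% counting interval 3.35 to 5.24, adjusted p = 4.75e-11). With wild-type SUZ12 put back it was 0.36, 0.212 and 0.489 CPM, below each knockout library, a log2 fold change of -4.33 (counting interval -5.00 to -3.72, adjusted p = 4.97e-13), and it did not differ detectably from wild type (-0.11, counting interval -1.20 to 1.07). The HP1 set gave 3 counts in all 3 wild-type libraries together, at 0.0729, 0.189 and 0 CPM, against 12.2, 10.7 and 10.8 CPM in the knockout, a log2 ratio of 6.77 with a counting interval of 5.21 to 9.05 (adjusted p = 6.46e-16). Full-length SUZ12 in that set left it at 5.34, 4.48 and 7.06 CPM. These libraries lay below the knockout (-0.99 ± 0.25 SE, adjusted p = 0.00224) and above the wild type (log2 ratio 5.77, counting interval 4.20 to 8.05, adjusted p = 5.1e-12). The R cells of the RBBP5 sets were as low as wild type, at 0.0963, 0.349 and 0.0518 CPM in one set and 0.303, 0.414 and 0.198 CPM in the other. The RS cells were higher in each library, at 1.15, 0.777 and 1.45 CPM (log2 fold change 2.63, counting interval 1.66 to 3.75, adjusted p = 1.02e-06) and at 2.14, 2.41 and 2.58 CPM (2.84, counting interval 2.06 to 3.72, adjusted p = 2.19e-07). The TCF degron line was different before any auxin: its DMSO libraries had 26.8, 25.6 and 33.9 CPM of Zfp951, above every library of the E14TG2a lines, a level set beside another line and dataset and not tested. After 48 h of auxin it was 20.7, 23.4 and 19.9 CPM (-0.45 ± 0.19, adjusted p = 0.0651), which was not called, although without the 24 h library that stands apart it was (-0.46, adjusted p = 0.00165). Zfp951 lies at chr5:104802246-104860157 (mm10) outside any cluster of members.

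Zfp936 was the other member called higher in all 4 knockout comparisons, of which those in the RBBP5 sets use an RS line of the same name. It stood at 16.2, 17.1 and 18.4 CPM in R of the SUV2 set and at 47, 47.8 and 45.2 CPM in RS, without overlap, a log2 fold change of 1.33 ± 0.05 (adjusted p = 2.83e-20). In the SD2 set it was 38.3, 33.3 and 35.1 CPM in R and 61, 52.6 and 56.9 CPM in RS (0.58 ± 0.10, adjusted p = 6.24e-05). Zfp936 also rose in the HP1 set, from 47.1, 49.6 and 48.0 CPM to 70.6, 72.3 and 84.2 CPM (0.58 ± 0.08, adjusted p = 1.21e-07). The panel showed 34.2, 43.5 and 54.7 CPM in wild type and 50.1, 78.8 and 82.6 CPM in the knockout, where the lowest knockout library lay within the wild-type range (0.56 ± 0.14, adjusted p = 0.00245). Wild-type SUZ12 in the panel brought it to 33.5, 26.9 and 30 CPM (-1.13 ± 0.14 against the knockout, adjusted p = 3.06e-07), which was also below wild type (-0.57 ± 0.15, adjusted p = 0.0119). That call against wild type was lost without wild-type replicate 3 (adjusted p = 0.113) or without replicate 2 of the rescue line (0.076). Full-length SUZ12 in the HP1 set brought Zfp936 to 52.2, 51.6 and 50.8 CPM, below each knockout library (-0.51 ± 0.08). Over all genes tested in the 4 knockout comparisons, 12.4% were called higher in each, and of 33 members tested in all 4, 2 were. Of these 2, Zfp951 became a member through groups other than wild type or R in DMSO. Zfp936 lies at chr7:43114166-43192109.

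Zfp961 rose in the knockouts of the panel and the HP1 set and was not called in the RBBP5 sets. Its panel level was 81.0, 84.6 and 104 CPM in wild type, 164, 162 and 187 CPM in the knockout and 71.7, 64.3 and 72.2 CPM with wild-type SUZ12. The knockout libraries were the highest of the 3 groups and did not overlap the others, with log2 fold changes of 0.81 ± 0.08 against wild type (adjusted p = 5.19e-09) and -1.20 ± 0.08 on rescue (adjusted p = 2.04e-12). The knockout libraries were also the highest in the HP1 set, at 80.2, 75.8 and 78.1 CPM in wild type, 124, 130 and 127 CPM in the knockout (0.64 ± 0.07, adjusted p = 7.02e-11) and 88.2, 88.1 and 95.8 CPM with full-length SUZ12 (-0.46 ± 0.07). The rescued cells thus lay below wild type in the panel and above it in the HP1 set, where the call was lost without the filter on low counts (0.19, adjusted p = 0.0528) and on leaving out any of 5 of the 6 libraries. In the SUV2 set, R in DMSO was at 146, 152 and 139 CPM and RS at 160, 161 and 157 CPM. The genotype there differs in the RBBP5 tag, and the difference between datasets was not tested. The gene lies at chr8:71951048-71970333.

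Zfp941 was the member called lower in all 4 knockout comparisons, against 9.55% of all genes. It fell from 21.2, 17.6 and 19.1 CPM in R to 12.4, 10.6 and 12.6 CPM in RS of the SUV2 set, without overlap (-0.82 ± 0.08), and from 18.3, 18.7 and 17.5 CPM to 12.4, 14.1 and 12.1 CPM in the SD2 set (-0.60 ± 0.09). The HP1 knockout had a fall from 19.8, 18.1 and 19.8 CPM to 13.1, 17.7 and 9.86 CPM (-0.49 ± 0.17). In the panel it was 15, 19.6 and 19.5 CPM in wild type and 9.35, 15.5 and 16.3 CPM in the knockout, where the groups overlapped (-0.52 ± 0.15, adjusted p = 0.00526). Zfp940 fell further, but in 3 of the 4 comparisons: from 20.6, 21.6 and 28 CPM to 11.5, 11.3 and 15.7 CPM in the panel (-0.98 ± 0.11, adjusted p = 1.04e-07). Wild-type SUZ12 brought it to 25.6, 23.7 and 24.3 CPM, within the wild-type range (1.03 ± 0.11, adjusted p = 1.48e-08). The R and RS groups of the SUV2 set were also apart, at 28.7, 29.4 and 27.5 CPM against 14.7, 13.5 and 12.6 CPM (-1.18 ± 0.06), as they were in the SD2 set (-0.93 ± 0.09). In the HP1 set Zfp940 was at 14.4, 15.4 and 13.7 CPM in wild type and 13.4, 10.1 and 14.2 CPM in the knockout and was not called. Zfp932, the repressor of endogenous retroviruses, stood at 16.7, 14.6 and 21.8 CPM in wild type of the panel and at 12.5, 10.5 and 13.2 CPM in the knockout (-0.66 ± 0.13, adjusted p = 0.000132), and rose with wild-type SUZ12 (0.42 ± 0.12, adjusted p = 0.00564). It was also called lower in RS of the SUV2 set (-0.64 ± 0.07), but not in RS of the SD2 set (-0.42 ± 0.22) or the HP1 knockout (-0.57 ± 0.49). Zfp930 fell in RS of the SUV2 set relative to R, with 62.3, 61.4 and 64.1 CPM against 36.2, 37.4 and 38.3 CPM (-0.86 ± 0.04), and was lower by -0.78 in the SD2 set.

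**Figure D2:**
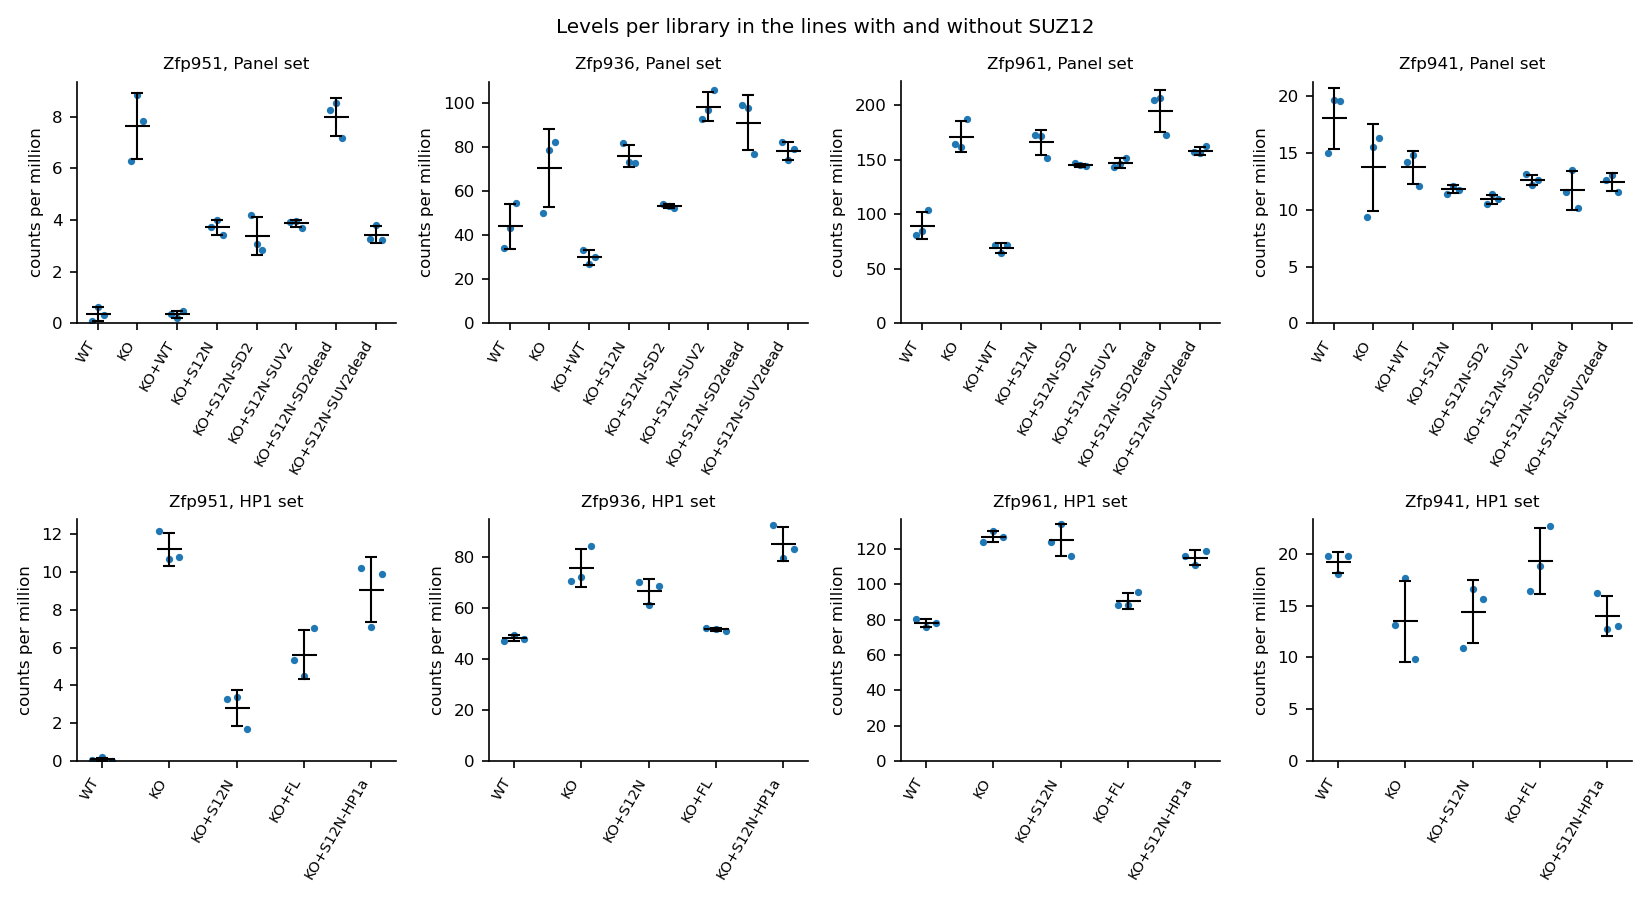
CPM of Zfp951, Zfp936, Zfp961 and Zfp941 in each library (points) of the panel (top) and the HP1 set (bottom), with bars for the mean and SD of 3 libraries. Zfp951 lies under 1 CPM in wild type and in the panel's wild-type rescue, and between 6.3 and 12.2 CPM in the knockout libraries.

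As a group, the members moved in both directions in the knockouts. In the panel 9 of 34 were called against wild type, 5 higher and 4 lower, with a median log2 fold change of -0.06, and 47.1% of all genes tested were called. On rescue with wild-type SUZ12, 10 of 34 were called against the knockout, 3 higher and 7 lower, beside 48.7% of all genes. Between rescue and wild type 3 were called, all lower, beside 10.4% of all genes; these were Zfp936, Zfp960 and Zfp961, and the count was 1 without replicate 2 of the rescue line and 5 without the filter on low counts. In the HP1 set 18 of 50 were called in the knockout, 10 higher and 8 lower, beside 41.8% of all genes. There Zfp977 rose from 7.5, 7.47 and 8.15 CPM to 17.9, 18.0 and 17.0 CPM (1.15 ± 0.18, adjusted p = 1.04e-06), and full-length SUZ12 brought it to 12.7, 9.92 and 10.3 CPM (-0.64 ± 0.17), between the other groups. Zfp937 went the other way, from 7.87, 8.42 and 8.61 CPM to 5.26, 4.68 and 5.84 CPM (-0.74 ± 0.22, adjusted p = 0.00524) and, with full-length SUZ12, to 8.84, 10.2 and 8.09 CPM (0.85 ± 0.21, adjusted p = 0.00197). Full-length SUZ12 against the knockout had 13 members called, 3 higher and 10 lower, beside 26.4% of all genes called and 14.1% called lower. Against wild type, 8 were called, 3 higher and 5 lower, beside 19.1% of all genes. Of the primitive endoderm markers 16 of 19 were called higher than in wild type with full-length SUZ12, with a median of 2.75 and a sum of 1930 to 2050 CPM, and their part was not tested. The count of 8 members was 5 without wild-type replicate 1 or 3, 4 without wild-type replicate 2 and 3 without full-length replicate 1. In the SUV2 set 22 of 34 were called between RS and R, 5 higher and 17 lower with a median of -0.17, beside 71.8% of all genes called and 34.9% called lower. In the SD2 set 23 of 51 were called, 12 higher and 11 lower with a median of -0.02, beside 59% of all genes, and 30 of 52 (15 in each direction) without R dTAG replicate 3, when 70.6% of all genes were called.

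Markers of other cell states moved with the knockout. Of 19 primitive endoderm markers, 18 were called higher in the knockout of the panel and 19 in each other dataset; their summed level rose from 1120 to 1200 CPM in wild type to 2390 to 3760 CPM in the panel and from 1310 to 1380 CPM to 2740 to 2780 CPM in the HP1 set. In the RBBP5-SUV2 set that sum was 732 to 822 CPM in R and 3140 to 3340 CPM in RS, and in the SD2 set 945 to 1020 CPM against 9160 to 9580 CPM. Of these markers, 1 was at 0 in R in DMSO of the SD2 set and none in the other groups named here. Markers of 2-cell-like cells summed to 6.55 to 10.6 CPM in wild type of the panel, with 13 of the list at 0, and to 32.0 to 38.4 CPM in its knockout, with none at 0. The ranges were 12.5 to 13.1 CPM in R and 105 to 107 CPM in RS of the SD2 set, and 4.26 to 5.23 CPM in wild type and 9.86 to 14.1 CPM in the knockout of the HP1 set. In the HP1 set 14 of these markers were at 0 in wild type and 2 in the knockout. Ddit4l was the marker tested there and was not called (0.34 ± 0.27, adjusted p = 0.323). Of 16 pluripotency markers, 14 were called in the panel, 6 higher and 8 lower. The part of these cell states in the members' differences was not tested.

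Members sit in 5 clusters of 3 or more genes whose starts lie within 2 Mb of the next. The cluster at chr4:145670697-147849126 holds 11 members, the one at chr17:21565816-22867309 holds 10, those at chr2:175918283-178078425 and chr7:42579397-43192109 hold 4 each, and the one at chr8:69209018-69749962 holds 3. Of the chromosome 4 cluster the merged tables list Zfp933 alone by symbol, so that it was followed in the RBBP5-SD2, degron and HP1 sets. In the SD2 set 9 of its 11 members were called between RS and R, 7 higher and 2 lower, with a median of 0.40, beside 59% of all genes (70.6% without R dTAG replicate 3). Zfp981 stood at 6.74, 5.44 and 6.99 CPM in R and at 21.5, 20.9 and 23.6 CPM in RS, far apart (1.69 ± 0.10). Zfp980 was at 18.5, 15.8 and 18.9 CPM against 42.8, 46.1 and 42.1 CPM (1.20 ± 0.09), and Zfp992 at 10.5, 10.8 and 11.5 CPM against 23.6, 26.6 and 26.1 CPM (1.12 ± 0.11). Zfp991, Zfp982, Zfp987 and Zfp933 rose by less, with log2 fold changes from 0.28 to 0.81, whereas Zfp985 (-0.32) and Zfp984 (-0.49) fell. In the HP1 knockout 6 of the 11 were called, 3 in each direction, beside 41.8% of all genes. Zfp981 rose from 20.8, 21.1 and 22 CPM to 38.4, 42.6 and 47.5 CPM (0.95 ± 0.12), and full-length SUZ12 brought it to 21.2, 18.2 and 24.8 CPM, around the wild-type level (-0.98 against the knockout). Zfp992 (0.66) and Zfp980 (0.32) rose as well, and Zfp985 (-0.37), Zfp979 (-0.37) and Zfp984 (-0.26) fell. On rescue Zfp980, Zfp992, Zfp991 and Zfp982 were called lower and Zfp985 higher. Zfp980, Zfp981 and Zfp992 were thus called higher, and Zfp985 and Zfp984 lower, in both knockout comparisons where they could be tested. They were 3 higher and 2 lower of 17 members tested in these 2 knockouts alone, and over all genes tested in both 15.5% were called higher and 12.1% lower in each.

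Adding S12N without the VEFS domain to the knockout changed few members. In the panel 1 of 34 was called, beside 3.81% of all genes: Zfp951 stood at 3.74, 3.99 and 3.43 CPM, below each knockout library (-1.01 ± 0.18, adjusted p = 0.00223) and above each wild-type library. In the HP1 set 4 of 50 were called, all lower, beside 1.89% of all genes. Zfp951 was at 3.27, 3.4 and 1.72 CPM (-2.0 ± 0.26, adjusted p = 1.66e-06), and Zfp981 at 18.9, 22 and 22.4 CPM (-1.02), near wild type. Zfp979 (-0.36 ± 0.07) and Zfp980 (-0.35) were lower by less. With the HP1a chromodomain on S12N 4 of 50 members were called against S12N, all higher, beside 6.97% of all genes. Zfp951 rose to 10.2, 7.12 and 9.88 CPM, above each S12N library (1.69 ± 0.26, adjusted p = 1.7e-05). Zfp981 rose to 31.5, 25.6 and 32.3 CPM (0.50 ± 0.12, adjusted p = 0.00444), Zfp936 from 70.1, 61 and 68.5 CPM to 92.6, 79.6 and 83.1 CPM (0.34 ± 0.08), and Zfp945 from 35.9, 33.1 and 36.0 CPM to 43.4, 47.5 and 42.9 CPM (0.34 ± 0.09). The call of Zfp981 was lost without S12N replicate 1 (adjusted p = 0.0713). That of Zfp945 was lost without S12N replicate 2 (0.0676) or HP1a fusion replicate 2 (0.103). The primitive endoderm sum was 2900 to 3120 CPM with S12N and 3550 to 5440 CPM with the HP1a fusion, and its part was not tested.

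Active and dead versions of each fusion were compared in the panel. The column names of dead SD2 differ in style from those of the other fusion lines, so that preparation and line cannot be told apart there. Between active and dead SD2, 6 of 34 members were called, all lower with a median of -0.29, beside 18.0% of all genes called and 10.0% called lower. Zfp951 was at 8.27, 8.52 and 7.16 CPM with dead SD2 and at 4.21, 3.09 and 2.85 CPM with active SD2, apart in all libraries (-1.26 ± 0.17, adjusted p = 1.43e-05). Zfp936 was at 99.2, 97.8 and 77.0 CPM against 54.5, 53.4 and 52.6 CPM (-0.79 ± 0.13, adjusted p = 0.000165), and Zfp961 at 205, 207 and 173 CPM against 147, 145 and 144 CPM (-0.44 ± 0.07, adjusted p = 0.000184). The active libraries were lower without overlap for both. Zfp958 (-0.65 ± 0.10), Zfp934 (-0.59 ± 0.13) and Zfp933 (-0.56 ± 0.15) completed the count. In several of these genes dead SD2 replicate 3 lay below its group, and without it 12 members were called. Between active and dead SUV2, 4 members were called, 3 higher and 1 lower, beside 22.6% of all genes. Zfp953 rose from 19.5, 15.8 and 17.2 CPM to 25.6, 24.9 and 29.4 CPM (0.67 ± 0.13), and Zfp936 from 82.4, 74.2 and 79.1 CPM to 92.8, 96.8 and 106 CPM (0.39 ± 0.13, adjusted p = 0.0295). Zfp956 fell from 8.68, 9.04 and 9.07 CPM to 5.18, 7.07 and 6.77 CPM (-0.43 ± 0.11). That count was 2 without active SUV2 replicate 1 or 3 or without dead SUV2 replicate 2 or 3. The call of Zfp936 was lost without replicate 2 or 3 of either line (adjusted p from 0.0624 to 0.123).

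The difference of the activity effects, SUV2 minus SD2, was called in 13 of 34 members, 12 of them higher for SUV2, with a median of 0.41, beside 23% of all genes called and 11.5% called higher. It was greatest for Zfp951 (1.5 ± 0.25), Zfp936 (1.18 ± 0.18) and Zfp953 (0.97 ± 0.18), and negative for Zfp956 (-0.64 ± 0.16). Without active SUV2 replicate 3 the count was 8. The dead fusions are themselves lines that differ from S12N. Dead SD2 against S12N had 5 members called, all higher, beside 13.1% of all genes, with Zfp951 (1.09 ± 0.17, adjusted p = 0.000144), Zfp933 (0.57) and Zfp958 (0.51) foremost. This count ranged with the library left out: it was 3 without S12N replicate 1 or dead SD2 replicate 2, 2 without dead SD2 replicate 1 and 8 without dead SD2 replicate 3. Dead SUV2 against S12N had 4 called, 3 higher and 1 lower, beside 21% of all genes. Leaving out S12N replicate 1 or 3 gave 1 member, dead SUV2 replicate 1 gave 0, and dead SUV2 replicate 2 or 3 gave 2. Markers moved here too. The 2-cell-like sum was 43.5 to 61.5 CPM with active SD2, 48.1 to 66.7 CPM with dead SD2, 6.63 to 6.81 CPM with active SUV2 and 26.7 to 30 CPM with dead SUV2. The primitive endoderm sum was 1570 to 1830, 1800 to 2050, 1510 to 1640 and 2970 to 3750 CPM in the same order. The part of either in the members' differences was not tested.

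**Figure D3:**
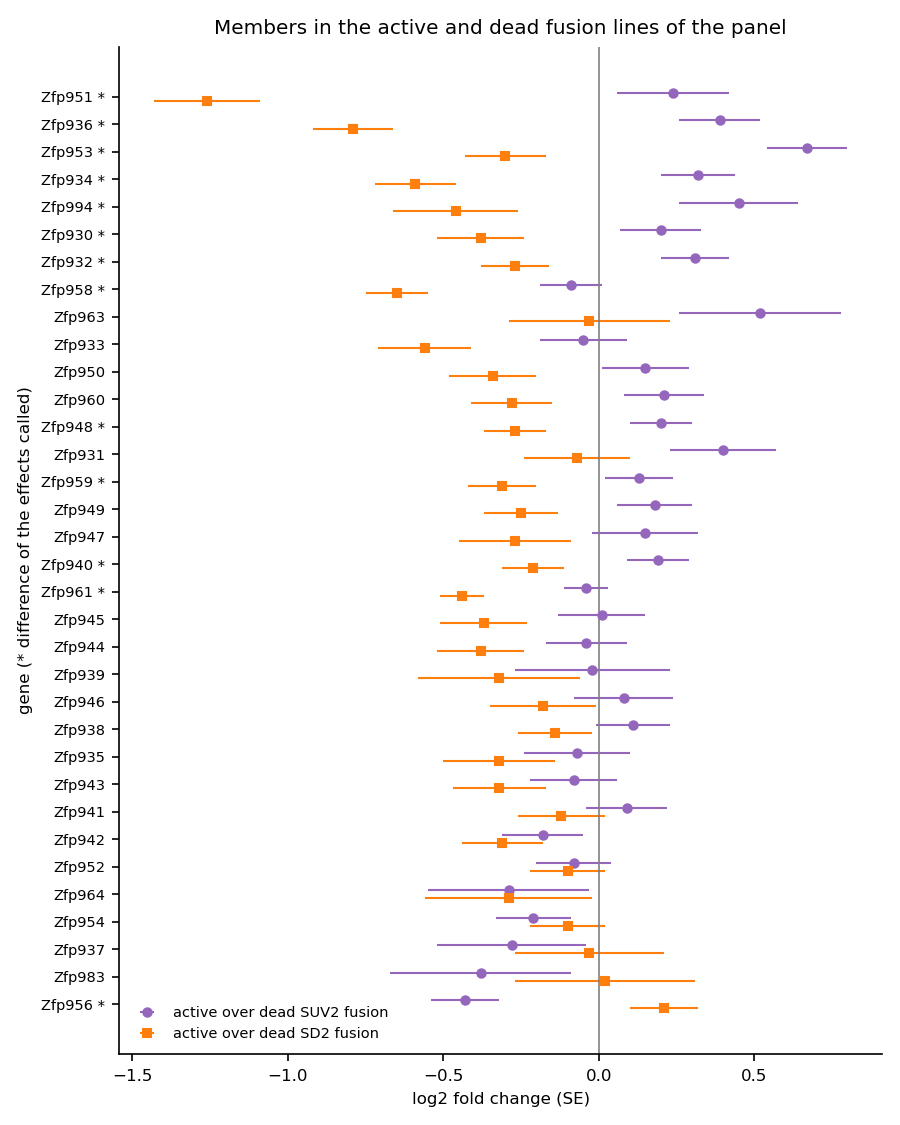
Log2 fold change (points, with SE) of 34 members between the active and dead fusion lines of the panel, circles for SUV2 and squares for SD2, with an asterisk where the difference between them was called. Zfp951 is at -1.26 for SD2, and Zfp956, at the bottom, is at -0.43 for SUV2.

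In the RBBP5 sets each fusion was compared with RS in DMSO. The SUV2 fusion had 13 of 34 members called, 12 higher and 1 lower, beside 48.7% of all genes called and 23.3% called higher. With DESeq2 the count was 6, all higher. Zfp936 rose again, from the 47, 47.8 and 45.2 CPM of RS to 69.5, 69.8 and 67.7 CPM (0.61 ± 0.04), so that it stood highest in the line with the fusion. Zfp953 rose from 13.9, 14.3 and 14.5 CPM to 19.3, 20.9 and 20.3 CPM (0.56 ± 0.08), and Zfp945 from 38.6, 37.4 and 37.5 CPM to 47.1, 51.7 and 45.9 CPM. The member called lower was Zfp951, at 0.591, 0.685 and 0.666 CPM, under each RS library (-0.72 ± 0.30, adjusted p = 0.0444). That call was lost with DESeq2 (adjusted p = 0.143), without the filter on low counts (0.0727) and on leaving out any of 5 of the 6 libraries (0.0723 to 0.221). The SD2 fusion had 9 of 51 called, 3 higher and 6 lower, beside 28% of all genes. The count was 5 without RS DMSO replicate 1 or 2 or without fusion DMSO replicate 3, and 13 without R dTAG replicate 3, which enters through the shared spread. Zfp979 rose from 131, 123 and 127 CPM to 191, 194 and 179 CPM (0.58 ± 0.07, adjusted p = 5.87e-06) and Zfp981 from 21.5, 20.9 and 23.6 CPM to 33.3, 32.1 and 29.9 CPM (0.55 ± 0.09, adjusted p = 0.000139). Both lie in the chromosome 4 cluster, as does the third member called higher, Zfp992 (0.29 ± 0.10, adjusted p = 0.032). The call of Zfp992 was lost without RS DMSO replicate 1 (adjusted p = 0.146) or 3 (0.0591) or fusion DMSO replicate 1 (0.179). Zfp970 was among those that fell (-0.47 ± 0.10, adjusted p = 0.00112). The primitive endoderm sum was 1330 to 1420 CPM with the SUV2 fusion and 1810 to 1860 CPM with the SD2 fusion, below RS in both sets. Of the 2-cell-like markers, 12 of 12 tested were called lower with the SUV2 fusion, with a median of -4.95 and a sum of 7.36 to 8.96 CPM against 27.9 to 30.4 CPM in RS. With the SD2 fusion 3 of 19 were called, 1 higher and 2 lower, and the sum was 94.5 to 96.8 CPM against 105 to 107 CPM. The part of these markers was not tested.

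After depletion of RBBP5 with dTAG13, more members were called lower than higher in each of the 6 comparisons, as were more of the other Zfp genes, those with numbers under 900 (75 against 65 in R of the SUV2 set and 80 against 27 in RS of the SD2 set). In the SUV2 set 14 of 34 were called in R (5 higher, 9 lower) beside 51.6% of all genes called and 26.2% called lower, 16 in RS (3 higher, 13 lower) beside 48.3% called and 25.1% called lower, and 18 in the fusion line (5 higher, 13 lower) beside 52.8% called and 27% called lower. In the SD2 set 26 of 51 were called in R (8 higher, 18 lower) beside 41.8% called and 20.2% called lower, 22 in RS (2 higher, 20 lower) beside 38.2% called and 22.3% called lower, and 20 in the fusion line (4 higher, 16 lower) beside 41.5% called and 22.9% called lower. Without R dTAG replicate 3 the SD2 set had 29, 26 and 28 members called, beside 49.7%, 54.8% and 57.4% of all genes. The fusion line's count was 13 without its dTAG replicate 3. Of 34 members tested in all 6 comparisons, Zfp936, Zfp940, Zfp948, Zfp930, Zfp945 and Zfp994 were called lower in each, against 9.26% of 12695 genes, and Zfp954 was called higher in each, against 6.16%. R and RS each enter these 6 comparisons in both sets, so that the 6 may not be separate lines. Without R dTAG replicate 3 there were 8 members lower in all 6, with Zfp938 and Zfp958 added, against 11.6% of all genes, and 2 higher, with Zfp961 added, against 9.37%.

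Zfp945 fell in the SUV2 set from 38.3, 37.5 and 41.1 CPM to 29.4, 28.2 and 28.2 CPM in R (-0.47 ± 0.06), from 38.6, 37.4 and 37.5 CPM to 26.5, 22.1 and 24.0 CPM in RS (-0.63 ± 0.06) and from 47.1, 51.7 and 45.9 CPM to 30.7, 31.3 and 32.9 CPM in the fusion line (-0.59 ± 0.05). In the SD2 set its RS libraries went from 38.3, 39.2 and 37.3 CPM to 19.6, 19 and 18.4 CPM (-0.99 ± 0.09, adjusted p = 5.04e-07). No dTAG13 library of these lines reached a DMSO library of the same line. In R of the SD2 set Zfp945 had 42.2, 41.5 and 40.8 CPM in DMSO and 24.1, 24.4 and 14.9 CPM in dTAG13 (-0.93 ± 0.09), where the library that stands apart was the lowest, and the change was -0.79 without it. Zfp994 had low levels, 3.76, 4.07 and 2.75 CPM in DMSO and 1.35, 1.05 and 1.42 CPM in dTAG13 in the SD2 fusion line, and its log2 fold changes ran from -0.48 to -1.40 over the 6 comparisons. Zfp940 fell from 28.7, 29.4 and 27.5 CPM to 20.3, 18.1 and 19 CPM in R of the SUV2 set (-0.59 ± 0.06) and from 12.5, 14.4 and 14.6 CPM to 7.04, 7.38 and 6.77 CPM in the SD2 fusion line (-0.90 ± 0.10). Zfp936, which stood higher in RS than in R, fell in RS from 47, 47.8 and 45.2 CPM to 33.8, 32.3 and 31.3 CPM in the SUV2 set (-0.51) and from 61, 52.6 and 56.9 CPM to 41.8, 44 and 39.5 CPM in the SD2 set (-0.42). Zfp948 fell with log2 fold changes from -0.21 to -0.70, and Zfp930 with changes from -0.15 to -0.32. Zfp954 went from 15.3, 13.8 and 13.4 CPM to 21.6, 17.7 and 21.1 CPM in R of the SUV2 set (0.49 ± 0.08) and from 9.1, 8.81 and 10.0 CPM to 14.9, 14.7 and 14.9 CPM in R of the SD2 set (0.71 ± 0.10). In RS its rise was 0.29 in both sets. In the SD2 set that call was lost without RS DMSO replicate 3 or RS dTAG replicate 2 or 3 (adjusted p from 0.0727 to 0.116). The call of Zfp954 in the SD2 fusion line was lost without its DMSO replicate 2 (0.0556) or dTAG replicate 3 (0.057). Without R dTAG replicate 3 the changes in R of the SD2 set were -0.73 for Zfp940, -0.54 for Zfp948, -0.70 for Zfp994, -0.23 for Zfp936 and 0.66 for Zfp954, each still called.

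**Figure D4:**
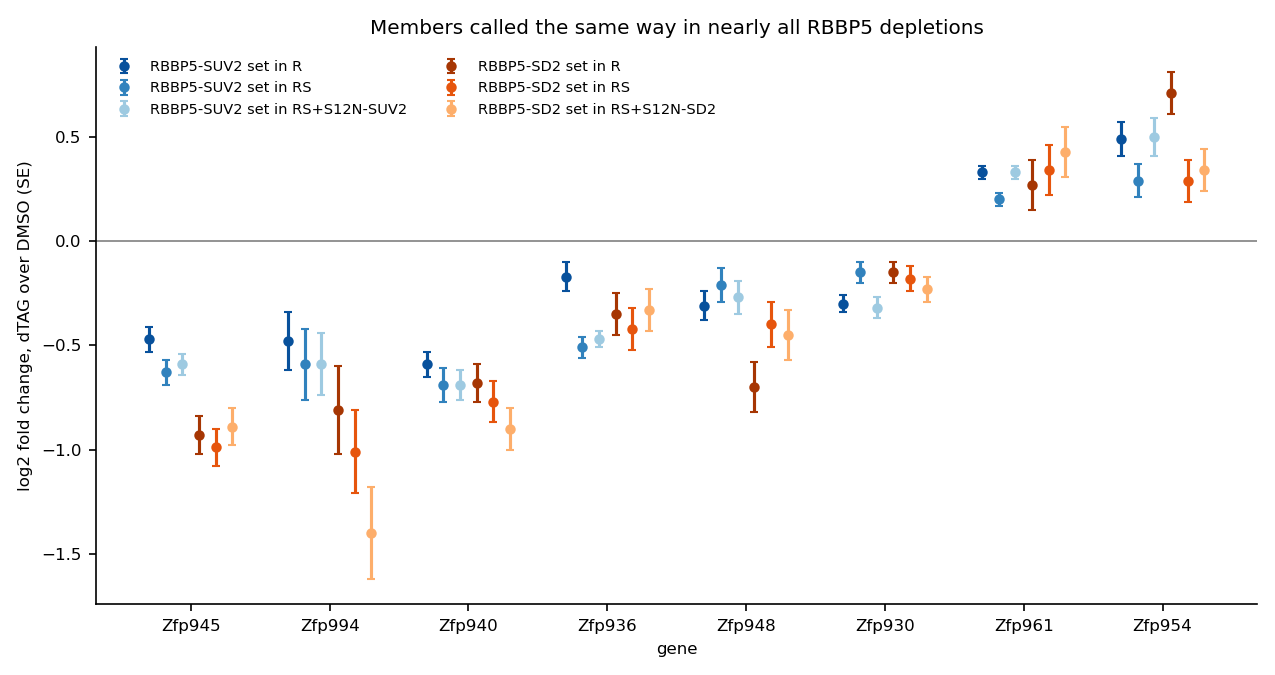
Log2 fold change (points, with SE) of 8 members after dTAG13 in the 6 comparisons, blue for the RBBP5-SUV2 set and orange for the RBBP5-SD2 set. Zfp945, Zfp994, Zfp940, Zfp936, Zfp948 and Zfp930 lie below 0 in each, down to -1.40 for Zfp994, and Zfp961 and Zfp954 lie above 0.

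Zfp961 rose after dTAG13 in 5 of the 6 comparisons. In the SUV2 set it went from 146, 152 and 139 CPM to 186, 182 and 185 CPM in R (0.33) and from 148, 151 and 148 CPM to 192, 185 and 183 CPM in the fusion line (0.33), without overlap. In RS of the SD2 set it went from 155, 148 and 146 CPM to 188, 188 and 182 CPM (0.34 ± 0.12, adjusted p = 0.0303), a call lost on leaving out any of the 6 libraries (adjusted p from 0.054 to 0.0876). In R of the SD2 set it was 139, 130 and 134 CPM in DMSO and 188, 184 and 103 CPM in dTAG13 and not called, with replicate 3 below the DMSO libraries, and without that library its log2 fold change was 0.46 (adjusted p = 4.31e-11). Zfp951 was called higher in R of both sets, from 0.0963, 0.349 and 0.0518 CPM to 0.534, 0.495 and 0.488 CPM (log2 fold change 1.59, counting interval 0.52 to 2.78, adjusted p = 0.0071) and from 0.303, 0.414 and 0.198 CPM to 0.826, 0.997 and 0.437 CPM (1.36, counting interval 0.44 to 2.35, adjusted p = 0.00882; 1.54 without replicate 3). The call in the SUV2 set was lost without R DMSO replicate 3 (adjusted p = 0.0511), and that in the SD2 set without R dTAG replicate 2 (0.0517). Levels of Zfp951 after dTAG13 in R remained below those of untreated RS in every library. Zfp979 fell in R of the SD2 set from 120, 108 and 119 CPM to 67.8, 71.9 and 74.8 CPM (-0.65, and -0.74 without replicate 3), and Zfp977 fell in the 3 lines of that set (-0.71 in R, -0.87 in RS and -0.71 in the fusion line; -0.54 in R without replicate 3).

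Few members had a different response to dTAG13 in RS than in R. The difference was called in 3 of 34 in the SUV2 set, all negative, beside 19.6% of all genes, and in 5 of 51 in the SD2 set, 2 positive and 3 negative, beside 12.1% (10 without R dTAG replicate 3, beside 22.5%). Zfp952 was the member called in both by edgeR. In the SUV2 set it went from 10.9, 10.8 and 10.7 CPM to 15.7, 15.2 and 16.2 CPM in R, without overlap, and from 12.3, 11.1 and 11.6 CPM to 13.3, 13.2 and 12.5 CPM in RS, a difference of -0.36 ± 0.10 (adjusted p = 0.0114) that was not called by DESeq2 (-0.35, adjusted p = 0.0781). In the SD2 set it went from 9.04, 9.34 and 11.5 CPM to 13.1, 12.7 and 12.8 CPM in R and from 11, 10.1 and 11.3 CPM to 9.25, 10.5 and 8.41 CPM in RS, a difference of -0.60 ± 0.14 (adjusted p = 0.0126), and -0.55 without the library that stands apart. Of the primitive endoderm markers, 6 of 19 were called in R of the SUV2 set (4 higher, 2 lower), 7 in RS (2 and 5) and 6 in the fusion line (4 and 2), and in the SD2 set 11 (8 and 3), 5 (2 and 3) and 6 (1 and 5). Their part in the members' changes was not tested.

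In the degron line the libraries at 24 and 48 h held 8.31 to 11.58 M counts. Those of DMSO and the earlier times held 12.97 to 18.81 M, so that depth and time in auxin cannot be told apart at 24 and 48 h. No member was called after 2, 4 or 8 h of auxin, when edgeR called 0.0%, 0.00713% and 0.0357% of all genes. At these times 2, 0 and 1 members had an unadjusted p under 0.05. Without IAA 24 h replicate 3 no member was called at these times either, beside 0.014%, 0.0211% and 0.961% of all genes. After 24 h, 13 of 51 were called, 5 higher and 8 lower, beside 34.3% of all genes. Replicate 3 at this time stands apart, and without it 24 members were called, 16 higher and 8 lower with a median of 0.15, beside 59.5% of all genes. Of 15 primitive endoderm markers tested at 24 h, 9 were called, 8 higher and 1 lower with a median of 1.13, and their sum ran from 450 to 1000 CPM. Of 3 tested 2-cell-like markers all were called, 1 higher and 2 lower. The part of these markers was not tested. Zfp976 was at 24.9, 25.9 and 25.0 CPM in DMSO and at 12.4, 9.03 and 15.1 CPM at 24 h, without overlap (-0.90 ± 0.12, adjusted p = 9.91e-05; -0.90 without replicate 3). Zfp975 fell from 14.9, 17.0 and 18.6 CPM to 10.5, 7.34 and 5.36 CPM (-0.93 ± 0.25, -0.58 without replicate 3). Zfp950 rose from 3.85, 3.12 and 3.7 CPM to 7.17, 9.39 and 5.01 CPM (1.23 ± 0.31, 1.56 without replicate 3), and Zfp983 from 3.18, 5.18 and 4.5 CPM to 7.59, 7.22 and 6.56 CPM (0.91 ± 0.23, 1.12 without). Zfp958 was at 74.2, 93.2 and 102 CPM in DMSO and 156, 156 and 96.7 CPM at 24 h, where replicate 3 lay within the DMSO range (0.84 ± 0.23, 1.13 without it). Zfp961, which rose in 2 of the knockouts, fell at 24 h from 119, 120 and 123 CPM to 85.8, 73.8 and 78.2 CPM (-0.41 ± 0.13, -0.26 without replicate 3). Zfp960 was called lower with replicate 3 (-0.59 ± 0.22, adjusted p = 0.0431) and was not called without it (-0.31, adjusted p = 0.152).

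After 48 h 27 of 51 members were called, 2 higher and 25 lower with a median of -0.53, beside 44% of all genes called and 23.8% called lower. Without the 24 h library that stands apart, which enters through the shared spread, the count was 36, 3 higher and 33 lower with a median of -0.54, beside 61.5% of all genes. Of the chromosome 4 cluster 8 of 11 were called, all lower, with a median of -1.10, and 10 of 11 without that library. Zfp981 fell from 30.5, 34.0 and 32.0 CPM to 10.7, 8.25 and 6.19 CPM (-1.95 ± 0.16) and Zfp980 from 23.5, 29.9 and 28.5 CPM to 9.61, 10.9 and 8.86 CPM (-1.5 ± 0.20), both far apart from DMSO. Zfp985, Zfp991, Zfp982, Zfp987, Zfp992 and Zfp984 fell with log2 fold changes from -0.99 to -1.25. Zfp981, Zfp980 and Zfp992, called lower here, were called higher in both knockouts where they could be tested; these are other lines, and the difference was not tested. Outside the cluster Zfp960 fell from 9.87, 11.4 and 11 CPM to 3.44, 4.89 and 4.0 CPM (-1.40 ± 0.22), Zfp937 from 13.9, 14.3 and 12.6 CPM to 5.73, 5.76 and 4.38 CPM (-1.37), and Zfp940 from 21.2, 20 and 18.4 CPM to 7.4, 8.44 and 10.0 CPM (-1.22 ± 0.14). No 48 h library of these genes reached its DMSO range. Zfp950 (3.85, 3.12 and 3.7 CPM to 8.11, 6.43 and 7.33 CPM, 1.03 ± 0.31) and Zfp995 (4.8, 5.18 and 4.27 CPM to 8.82, 9.88 and 8.67 CPM, 0.93 ± 0.22) rose. The call of Zfp950 was lost without DMSO replicate 2 (adjusted p = 0.0539) or IAA 48 h replicate 1 (0.0519). Zfp936 was at 25.9, 23.1 and 30.4 CPM in DMSO and 41.3, 41.8 and 36.2 CPM at 48 h and was not called (0.57 ± 0.23, adjusted p = 0.0569), but was called without the 24 h library that stands apart (adjusted p = 0.000586). The primitive endoderm sum was 773 to 891 CPM in DMSO and 678 to 710 CPM at 48 h, although 10 of 15 tested markers were called, 9 higher and 1 lower with a median of 1.64. The 2-cell-like sum was 9.66 to 10.8 CPM and 19.6 to 21.4 CPM, and 2 of 3 tested markers were called, both higher. Their part was not tested.

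**Figure D5:**
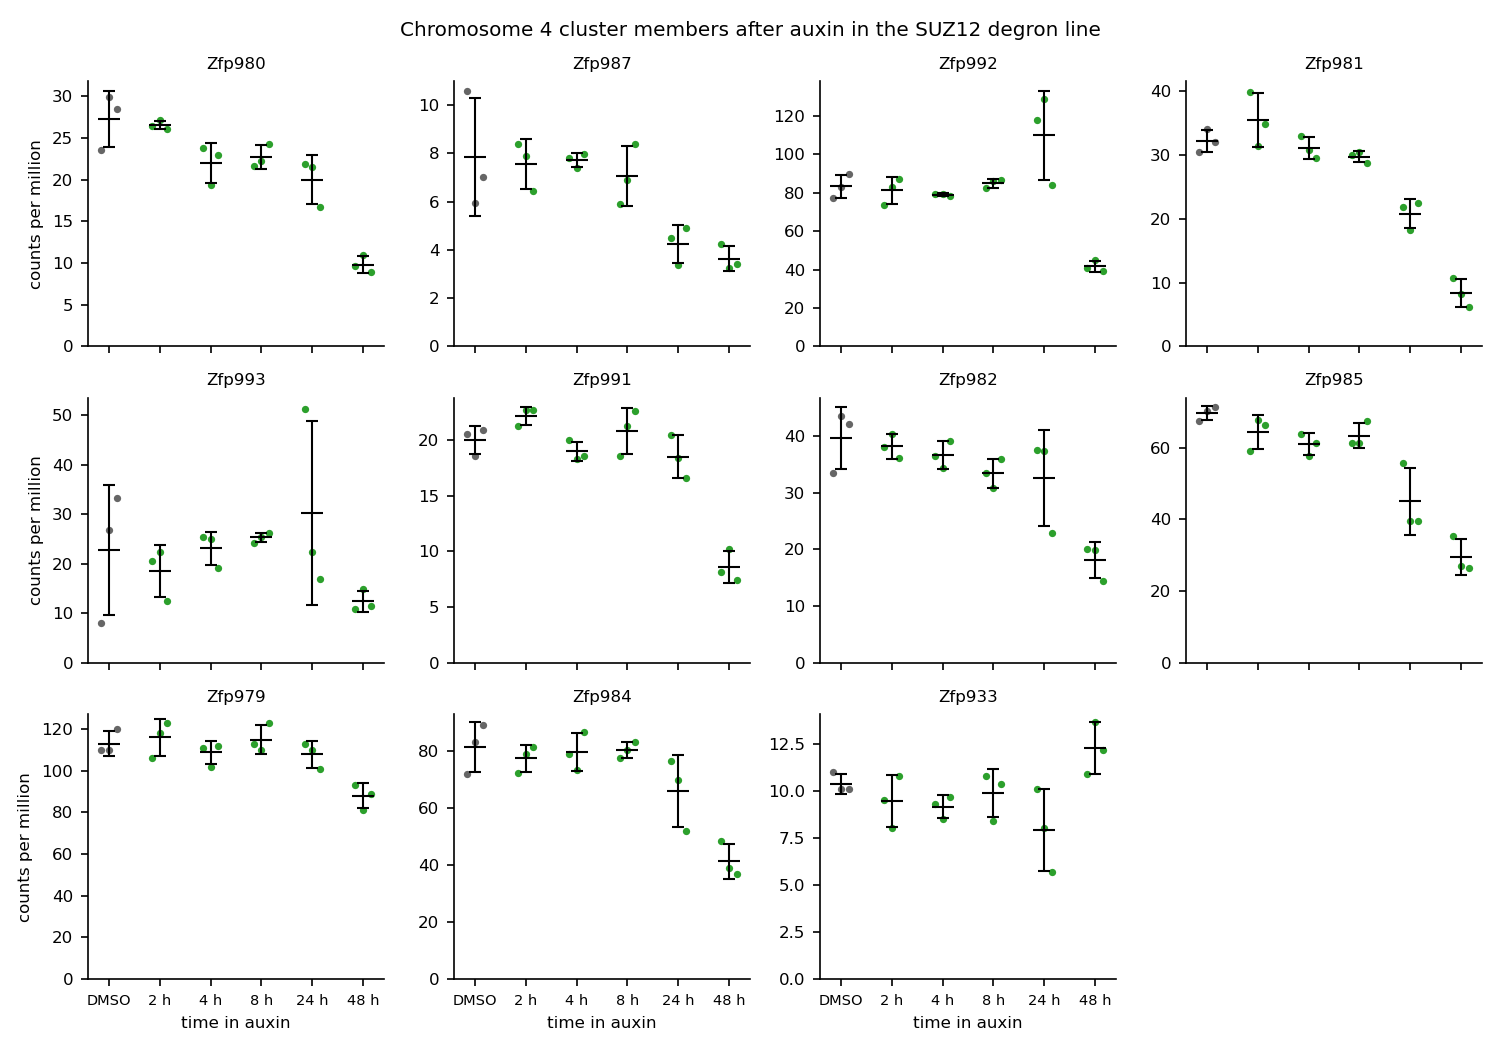
CPM of the 11 chromosome 4 cluster members in the degron line, with points for libraries and bars for the mean and SD of 3, in DMSO and after 2 to 48 h of auxin. Zfp981 goes from 30.5 to 34.0 CPM in DMSO to 6.19 to 10.7 CPM at 48 h, whereas the 48 h libraries of Zfp933 lie among or above those in DMSO.

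The proteins that work with zinc finger repressors were followed as a list of 29 genes. In the panel knockout 18 of 26 tested were called, all lower, with a median of -0.28, beside 47.1% of all genes. The RS cells of the SUV2 set had 19 of 26 called (7 higher, 12 lower) beside 71.8% of all genes. Those of the SD2 set had 21 of 29 (2 higher, 19 lower) beside 59%, and the HP1 knockout had 15 of 29 (3 higher, 12 lower) beside 41.8%. Atf7ip, a partner of SETDB1, fell in each, with log2 fold changes of -1.13, -0.86, -1.23 and -0.78, and Dnmt1, the maintenance DNA methyltransferase, fell by less, -0.49, -0.64, -0.62 and -0.31. After 48 h of auxin 8 of 29 were called, 3 higher and 5 lower, beside 44% of all genes. The other Zfp genes, those with numbers under 900, serve as a wider family. In the panel knockout 119 of 285 were called, 31 higher and 88 lower with a median of -0.19, where the members had 5 higher and 4 lower and 47.1% of all genes were called. The difference of the SUV2 and SD2 activity effects was called in 81 of 285 of them, 69 higher, with a median of 0.24, beside 23% of all genes. At 48 h of auxin 136 of 286 were called, 38 higher and 98 lower, with a median of -0.18 beside the members' -0.53, and 44% of all genes were called. Whether the members differ from this family was not tested.

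Related members share sequence, which limits how reads can be assigned. Of 52 members, 11 had more than 50% of the 36-base words of their transcripts (GENCODE vM21) in another gene, and 32 had more than 10%. At 75 bases these counts were 7 and 21. Within the chromosome 4 cluster the shared share of 36-base words was 79.6% for Zfp980, 53.9% for Zfp981, 46.8% for Zfp992, 86.5% for Zfp991, 90.3% for Zfp993 and 92.1% for Zfp987, so that reads could be split between neighbours and single values there are uncertain. It was 4.58% for Zfp951, 2.04% for Zfp940, 1.18% for Zfp945, 1.4% for Zfp961, 5.22% for Zfp954 and 5.96% for Zfp941. It was 26.0% for Zfp936, 30.5% for Zfp976, 39.9% for Zfp937, 41.5% for Zfp975, 44.8% for Zfp932 and 86.9% for Zfp960, whose values are uncertain for the same reason.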

How the data were processed

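Polyadenylated RNA of mouse ESCs was sequenced. The authors deposited raw read counts per gene, and these counts were used as deposited. Per the submitters' processing notes, the tools for the panel and the RBBP5-SUV2 set included Trim Galore 0.4.5, STAR 2.4, Picard, HTSeq 0.9.1 and DESeq2, those for the RBBP5-SD2 set DESeq2 1.46.0, featureCounts 2.0.8, HISAT2 2.2.1 and Trim Galore 0.6.7, and those for the degron and HP1 sets Trimmomatic and HISAT2, with build mm10 throughout. How reads that match several genes were counted is not given in the sources used here. Columns of the merged tables were matched to samples by the wording of their names, and those of the panel's fusion lines use the submitters' working names. The 12 samples of 4 groups treated with a KDM4 inhibitor were not analysed here. Per-library Entrez IDs were paired with symbols for 25275 of 27179 rows; 27 symbols of the merged tables had turned into dates. No rows without a gene were found.

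Each dataset was fitted by itself over all its groups in edgeR 4.0.16 (R 4.3.3), with TMM scaling, filterByExpr and the quasi-likelihood test, which kept 16230 genes in the panel, 15757 in the RBBP5-SUV2 set, 15211 in the RBBP5-SD2 set, 14016 in the degron set and 14026 in the HP1 set. P-values were adjusted by Benjamini-Hochberg over those genes and called under 0.05. CPM scale each library's counts to a common total. Where a group held fewer than 30 counts, a 95% counting interval replaces the SE; it covers counting error only. The steps were tested on simulated counts. Alternatives were RLE scaling, no filter on low counts, DESeq2 1.42.0, a replicate block and leaving out each library. The fits without the 2 libraries that stand apart were added after seeing the data.

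The members and lists were chosen with earlier results of these data known. Members named with full values in a comparison are up to 3 higher and 3 lower with the greatest fold change among those called without overlap of the groups, then the 12 called most often, the 5 with the highest level per dataset, and the 2 on each side of the CPM threshold; members named elsewhere were chosen after their values were seen. Replicate numbers were taken to pair samples where each of the 3 same-numbered correlations of deviations was over 0.1. That held in the panel's knockout and wild type (0.17, 0.12 and 0.122), where the replicate block gave the same count of 9. In every other comparison at least 1 of the 3 was at or under 0.1, although single values reached 0.347. No libraries were duplicates.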

Additional observations from a re-analysis of the deposited data

Results flagged for a closer look

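In the panel the difference between active and dead lines was itself unlike between SUV2 and SD2 for 13 of 34 members. Over all genes tested, 23% were called and 11.5% called higher. The difference itself was tested in edgeR, as 1 contrast over 4 lines of 3 libraries. Leaving out 1 library at a time gave 8 to 18 members. Since each construct is its own line, activity and line cannot be told apart. The log2 difference was 1.5 for Zfp951 (adjusted p = 8.34e-05), 1.18 for Zfp936 (adjusted p = 4.82e-05), 0.97 for Zfp953, 0.91 for Zfp934, 0.90 for Zfp994, 0.58 for Zfp930 and for Zfp932, 0.57 for Zfp958, 0.47 for Zfp948, 0.44 for Zfp959, 0.40 for Zfp940 and for Zfp961, and -0.64 for Zfp956. Zfp940 (adjusted p = 0.0438) and Zfp959 (adjusted p = 0.0488) lay nearest to the threshold.

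The response to dTAG13 differed between RS and R for 3 members in the RBBP5-SUV2 set and 5 in the RBBP5-SD2 set. This was again by a test of the difference, beside 19.6% and 12.1% of all genes called. In the RBBP5-SUV2 set the difference was -0.34 for Zfp936 (adjusted p = 0.00267), -0.36 for Zfp952 and -0.13 for Zfp961. In the RBBP5-SD2 set it was -0.60 for Zfp952, -0.67 for Zfp992, 0.41 for Zfp982, 0.41 for Zfp979 and -1.89 for Zfp964, a member with under 2 CPM in each library of that set. Without the R dTAG library that stands apart these 5 values were -0.55, -0.56, 0.36, 0.50 and -1.80, and each was still called.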

How the results depend on the processing

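Of 124 counts of called members under RLE scaling, no filter on low counts, DESeq2 or the replicate block, 121 lay within 1.5 times the count reported. The 3 that did not were wild-type SUZ12 rescue against wild type without the filter, with 5 members (1 higher, 4 lower) in place of 3, active against dead SD2 under the replicate block, with 10 members (all lower) in place of 6, and the SUV2 fusion against RS with DESeq2, with 6 members (all higher) in place of 13. The cause was not tested. Outside the panel's knockout and wild type the replicate numbers did not pair the samples by correlation; the replicate block left 12 and 25 members called at 24 and 48 h of auxin.

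Leaving out 1 library at a time gave these ranges of called members. In the panel they were 8 to 10 for knockout against wild type, 7 to 10 for rescue against knockout, 1 to 3 for rescue against wild type, 0 to 4 for dead SUV2 against S12N, 2 to 4 for active against dead SUV2, 2 to 8 for dead SD2 against S12N, 5 to 12 for active against dead SD2 and 8 to 18 for the difference of the activities. For the SD2 set they were 21 to 30 for RS against R, 5 to 13 for the fusion against RS, 21 to 29, 15 to 26 and 13 to 28 for dTAG13 in R, RS and the fusion line, and 4 to 10 for the difference between RS and R. For auxin they were 9 to 24 at 24 h and 23 to 36 at 48 h. In the HP1 set they were 15 to 16 for the knockout and 3 to 8 for full-length SUZ12 against wild type.

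Of 516 alternatives for single named members, 499 kept direction and call, 17 kept the direction and lost the call, and none reversed. Lost calls include Zfp951 between the SUV2 fusion and RS (DESeq2 adjusted p = 0.143) and Zfp961 between full-length SUZ12 and wild type (edgeR adjusted p = 0.053 under the replicate block). Leaving out a library lost the call in 121 of 868 cases and reversed none. Depth limits the low members: Zfp951 rests on 3 to 15 counts per group in wild type and R.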
